A study of Mus musculus with 12 samples.

Results

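The genes described here are the 3 chains of complement C1q (C1qa, C1qb and C1qc), 6 genes by which microglia are recognised (Csf1r, P2ry12, Cx3cr1, Tmem119, Siglech and Ctss), and Pla2g4a. Pla2g4a codes for a phospholipase and was found here in microglia-like nuclei and in other glial and vascular classes. These genes were chosen by name, with earlier results of these data known, and all 10 were found among the 31053 genes of the deposited table. Nuclei came from the right caudal forelimb area, the forelimb field of primary motor cortex, in 6 mice aged 13 weeks, and were measured by droplet single-nucleus RNA sequencing with 3′ capture. All 6 mice were on 1 mL of water a day. The 3 trained mice (2, 4 and 6) earned part of it by pressing a lever on days 11 to 13, with the head fixed and the left paw on the lever. The 3 control mice (1, 3 and 5) were given all of it in the home cage and did no task, so the task, the handling and the way of drinking cannot be told apart. The strain and sex of the mice are not analysed here.

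Microglia are the resident macrophages of brain tissue, and they survey synapses with moving processes. C1q is built of 3 different chains and starts the classical complement cascade, which in brain can mark synapses for removal. CSF1R is the receptor kinase on which microglia depend for survival, P2RY12 senses ADP and steers the processes, CX3CR1 receives fractalkine from neurons, and TMEM119 and SIGLECH are surface proteins used as microglial labels. Cathepsin S (Ctss) is a lysosomal protease, and PLA2G4A is the cytosolic phospholipase A2 that frees arachidonic acid from membranes, the first step toward prostaglandins and leukotrienes.

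The promoters of C1qb and C1qc are shown because the C1q chains shared a pattern across classes. That of Pla2g4a is shown because it was the gene that differed between the groups of mice. Each window runs from 250 bases before to 50 after a RefSeq start of build GRCm38.p6, 5′ to 3′ on the gene's strand, and capitals mark GAGGAA or its complement TTCCTC, the core bound by the myeloid factor PU.1.
C1qb, chr4:136886151-136886450, minus strand: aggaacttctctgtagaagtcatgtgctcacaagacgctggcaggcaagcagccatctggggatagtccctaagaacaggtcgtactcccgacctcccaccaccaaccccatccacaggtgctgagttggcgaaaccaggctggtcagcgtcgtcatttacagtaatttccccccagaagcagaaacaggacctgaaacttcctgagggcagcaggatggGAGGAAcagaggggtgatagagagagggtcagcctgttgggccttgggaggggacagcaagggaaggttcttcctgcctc
C1qc, chr4:136892865-136893164, minus strand: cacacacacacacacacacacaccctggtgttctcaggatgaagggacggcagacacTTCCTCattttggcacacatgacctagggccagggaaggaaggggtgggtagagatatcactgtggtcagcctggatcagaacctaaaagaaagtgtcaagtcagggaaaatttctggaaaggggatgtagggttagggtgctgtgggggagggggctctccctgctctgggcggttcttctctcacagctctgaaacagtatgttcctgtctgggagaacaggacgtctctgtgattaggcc
Pla2g4a start 1, chr1:149961241-149961540, minus strand: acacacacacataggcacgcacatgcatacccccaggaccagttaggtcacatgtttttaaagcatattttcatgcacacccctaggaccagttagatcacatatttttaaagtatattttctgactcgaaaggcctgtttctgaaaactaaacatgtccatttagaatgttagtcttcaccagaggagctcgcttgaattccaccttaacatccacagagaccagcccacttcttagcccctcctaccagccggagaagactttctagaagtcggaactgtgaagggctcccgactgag
Pla2g4a start 2, chr1:149922390-149922689, minus strand: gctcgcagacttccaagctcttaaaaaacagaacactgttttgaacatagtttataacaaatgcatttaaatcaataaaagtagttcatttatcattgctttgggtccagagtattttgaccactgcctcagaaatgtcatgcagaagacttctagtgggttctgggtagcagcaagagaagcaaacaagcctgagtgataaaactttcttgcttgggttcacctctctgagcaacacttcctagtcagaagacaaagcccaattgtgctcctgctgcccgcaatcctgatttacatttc
C1qb held the motif 30 bases before its start and C1qc 193 bases before its start, and neither Pla2g4a window held it. Across both strands, 28.3% of 32851 RefSeq promoter windows of the same length held GAGGAA, so a match is no sign of a site. Siglech and Ctss also held it, and P2ry12 and Cx3cr1 did not. The AP-1 motif TGANTCA was in none of the windows of these 7 genes, against 7.81% of all promoters, and the RUNX core TGTGGT was in those of C1qc, Cx3cr1 and Siglech, against 16.8%. C1qa, Csf1r and Tmem119 have no sequence printed.

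After filters, 49199 nuclei were kept, 5254 to 8350 per trained mouse and 7333 to 11799 per control mouse. Of these, 2556 fell into a cluster named microglia-like from 22 markers that exclude the 10 genes; its leading genes included Inpp5d, Selplg, Ikzf1 and Runx1. It held 312, 423 and 183 nuclei of trained mice 2, 4 and 6, and 543, 596 and 499 of control mice 1, 3 and 5, with 352643 to 701550 UMIs (counted molecules) per trained mouse and 829111 to 938550 per control mouse. All 22 markers were detected in both groups, and their summed level was 25945 to 26748 CPM, in which a class's UMIs in each mouse are scaled to 1 common total, in trained mice and 25860 to 27485 in control mice. A further 90 nuclei were macrophage-like, by markers such as Mrc1, F13a1 and Cd163. In the microglia-like nuclei the 22 macrophage markers summed to 1126 to 1151 CPM in trained mice and 965 to 1164 in control mice, with 13 of 22 detected in trained and 20 of 22 in control mice and Lyve1 and Clec12a at 0, and 12 neuronal genes summed to 2167 to 2292 CPM in trained mice and 2092 to 3410 in control mice. A cluster of 20 nuclei with microglial markers was kept apart for its UMIs, whose median of 10751 was over 3 times that of the class. That choice was made after its UMIs were seen. Across mice, 311 barcode sequences occurred more than once, in 624 of 51926 barcodes.

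Levels by class cover microglia-like and macrophage-like nuclei and the classes with at least 20 nuclei in every mouse. Other clusters were left out. Among them, the 20 nuclei of high UMIs held 75 C1qb UMIs of 220999 in all. An unnamed cluster of 406 nuclei, with Tmsb10 and Fth1 among its leading genes, held 61 C1qb UMIs. Outside macrophage-like nuclei, the C1q chains, Csf1r, Siglech and Ctss were under 1% of their microglia-like level in every class covered, and Tmem119 was under 3%. C1qb reached 2853 ± 373 CPM there (SD, n = 6 mice), against 463 ± 151 CPM in macrophage-like nuclei, some of which carried neuronal RNA (described further on), 11.2 ± 0.89 in oligodendrocyte-like nuclei and 6.07 ± 2.13 in astrocyte-like nuclei. In the 13 neuronal classes, 2 of them unnamed clusters, its level was 0.912 to 3.69 CPM. C1qa (2255 ± 427 CPM in microglia-like nuclei) and C1qc (2365 ± 225 CPM) had macrophage-like nuclei next, at 382 ± 110 and 468 ± 258 CPM, with neuronal levels of at most 3.24 and 2.69 CPM. Microglia-like nuclei held 90.3% of all C1qa UMIs of the kept nuclei, 90.1% of C1qb, 89.6% of C1qc, 91.5% of Csf1r, 91.9% of Tmem119, 95.6% of Siglech and 91.7% of Ctss. As a share of the gene's own microglial level, the median over neuronal classes was 0.0243% for Siglech, 0.04% for Tmem119, 0.0507% for Csf1r, 0.057% for Ctss and between 0.0548% and 0.0603% for the C1q chains. Tmem119 came next in macrophage-like nuclei, at 23.1 ± 17.2 CPM, and then in vascular and leptomeningeal-like nuclei, at 16.9 ± 8.02 CPM or 2.47% of the microglial level. These levels describe clusters of the same nuclei, so no test was made between classes.

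**Figure D1:**
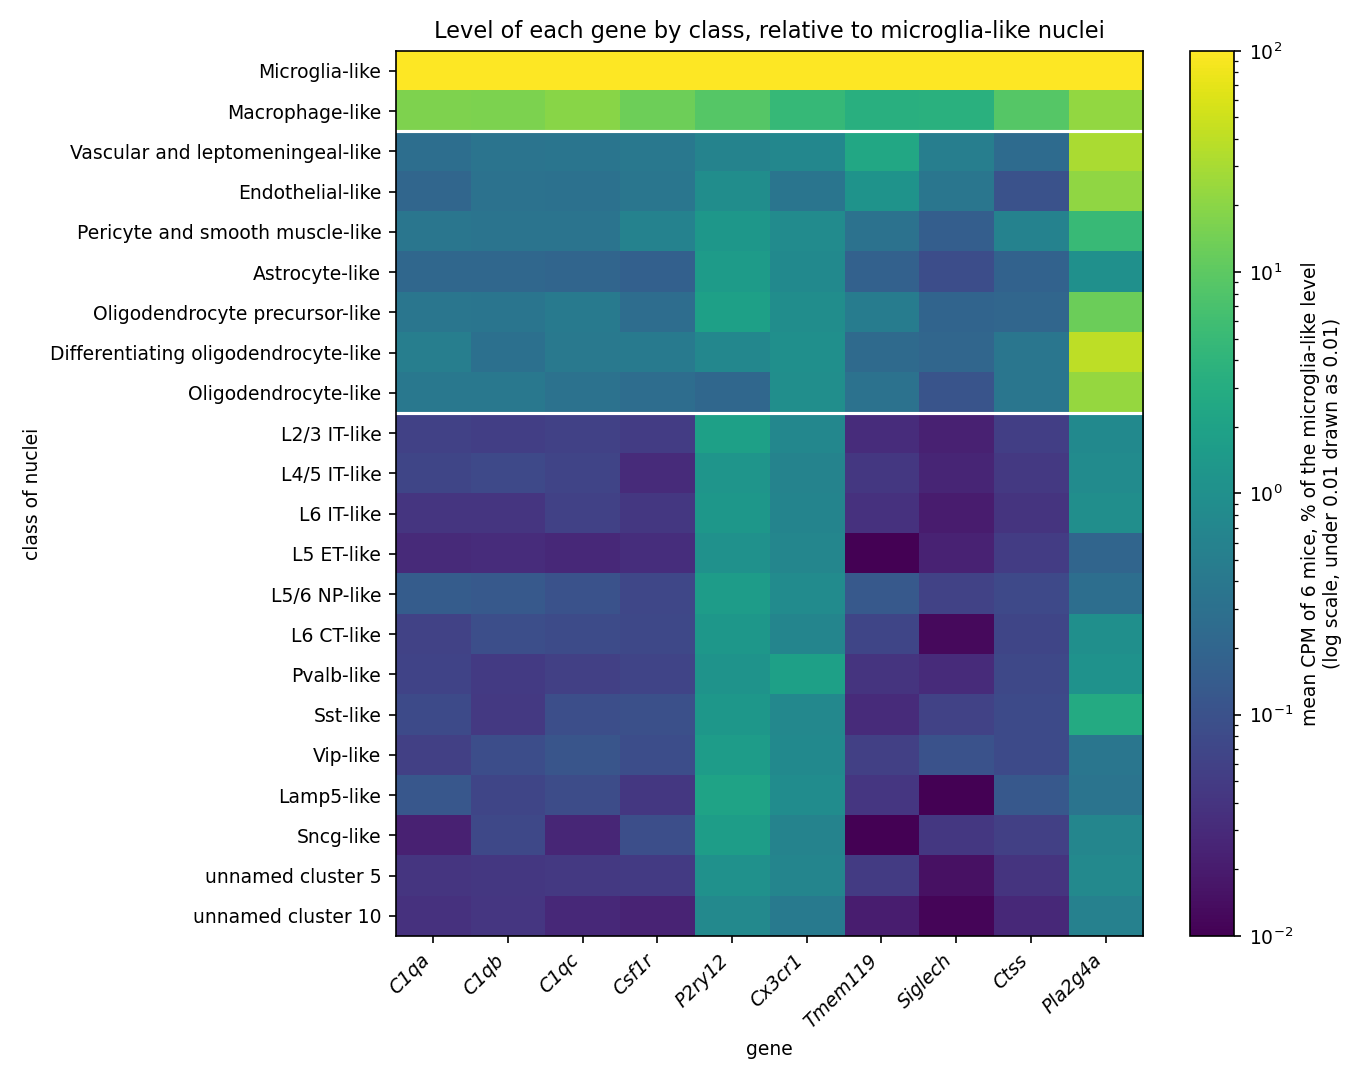
Mean level over the 6 mice of each gene (columns) in each class of nuclei (rows), as a percentage of the same gene's level in microglia-like nuclei, on a log colour scale. In neuronal classes P2ry12 lies between 0.764% and 2.12%, Cx3cr1 between 0.434% and 1.9% and Pla2g4a between 0.201% and 2.82%, where the C1q chains, Csf1r, Tmem119, Siglech and Ctss lie near or under 0.1%.

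In single nuclei, each with a median of 1502 UMIs, C1qb was found in 93.6% of microglia-like nuclei, C1qc in 91.7%, Ctss in 90.8%, C1qa in 90.1%, Csf1r in 86.9%, Cx3cr1 in 82.7%, P2ry12 in 81.5%, Siglech in 70%, Tmem119 in 60.9% and Pla2g4a in 24.5%. At least 1 C1q chain was seen in 99.3% of these nuclei and all 3 in 80.6%, and 1 nucleus of the 2556 had no UMI of any of the 10 genes. When each nucleus was thinned to 1000 UMIs, which left 2113 of them, C1qb was found in 87.4%. The same share was 1.09% in oligodendrocyte-like nuclei (median 1717 UMIs; 2% before thinning) and 0.172% in L2/3 IT-like neurons (median 9392 UMIs; 1.6% before thinning). Of all C1q UMIs in microglia-like nuclei, C1qb gave 38.1% (95% exact binomial interval 37.6 to 38.6, which covers counting error only), C1qc 31.6% and C1qa 30.3%. In the neuronal classes, from 1455 C1q UMIs, the proportions were 38.5% (36 to 41), 32.4% (30 to 34.9) and 29.1% (26.7 to 31.5), and each of these intervals holds the microglial proportion.

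P2ry12 and Cx3cr1 had higher levels in neurons, relative to microglia, than the other identity genes: the median over neuronal classes was 1.32% of the microglial level for P2ry12 and 0.69% for Cx3cr1. Microglia-like nuclei held 46.9% of P2ry12 UMIs and 60.6% of Cx3cr1 UMIs, while neuronal classes, which are many and deep, held 47.2% and 33.4%. P2ry12 was at 1474 ± 191 CPM in microglia-like nuclei, at 31.2 ± 9.72 in Lamp5-like interneurons and at 27.8 ± 5.13 in L2/3 IT-like neurons, and its lowest level was 3.23 ± 2.31 CPM in oligodendrocyte-like nuclei. Cx3cr1 was at 1621 ± 268 CPM in microglia-like nuclei and at 30.8 ± 4.28 in Pvalb-like interneurons, whose mice ranged from 24.9 to 35.8 CPM, while no other neuronal class averaged above 14.1 CPM. Both genes overlap others in the genome. P2ry12 (chr3:59216272-59262871, minus strand, mm10) lies wholly within Med12l, a Mediator subunit gene on the opposite strand, and the annotated Cx3cr1 gene (chr9:119901616-120069879, minus strand) spans Gorasp1, Csrnp1 and Xirp1 on its own strand and Ttc21a on the other. Med12l was at 201 ± 24.9 CPM in Lamp5-like and 172 ± 12.6 CPM in L2/3 IT-like neurons, and at 11.8 ± 3.05 CPM in oligodendrocyte-like nuclei. Over the 20 classes without microglia and macrophages, the log2 levels of P2ry12 and Med12l had a Pearson correlation of 0.83, a description over classes that share libraries, and over the 13 neuronal classes it was 0.37. Gorasp1, Csrnp1 and Xirp1 were at 0 CPM in every class described here. Wdr48, which overlaps Cx3cr1 on the other strand, was at 39.3 ± 8.65 CPM in microglia-like nuclei. How overlapping reads were counted was not tested, nor whether the 0 values of Gorasp1, Csrnp1 and Xirp1 come from the counting. Since no source used here gives whether the counting used strand, reads of P2ry12 and Med12l cannot be told apart with certainty.

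Macrophage-like nuclei shared the C1q chains with microglia, held Csf1r, Ctss and P2ry12 at lower levels, and had little Cx3cr1, Siglech or Tmem119. The 90 nuclei had a median of 1876 UMIs, and 25 of them had 5000 or more and carried neuronal RNA, so values are also given for the 65 under that limit, which was set after the data were seen. In those 65 nuclei, pooled over mice, C1qa was at 1709 CPM, 74.8% of the pooled microglial level (95% Poisson interval 64.5 to 86.2, counting error only), C1qb at 65.8% and C1qc at 78%. Csf1r was at 47.1% (37.9 to 57.9), Ctss at 24.7% and P2ry12 at 16.3%, with 14 of its 27 UMIs from control mouse 5. Cx3cr1 stood at 3.83% and Siglech at 3.45%, from 7 and 4 UMIs, and Tmem119 had 0 of 111178 UMIs, whose exact Poisson upper limit is 4.73% of the microglial level. Over all 90 nuclei the C1q chains were at 15.6% to 18.1% and Tmem119 at 3.11%. The neuronal gene Snap25 was at 1334 CPM over all 90 nuclei and at 369 CPM in the 65. With 8, 15 and 13 of these nuclei in trained mice and 19, 19 and 16 in control mice, no test between groups was made. Over all 90 nuclei C1qb was at 273, 532 and 694 CPM in trained mice 2, 4 and 6, against 422, 340 and 519 CPM in control mice 1, 3 and 5. In the 65 under 5000 UMIs it was at 1523, 3197 and 2084 CPM in trained mice, against 1793, 1646 and 1399 CPM in control mice. The groups overlapped in both.

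**Figure D2:**
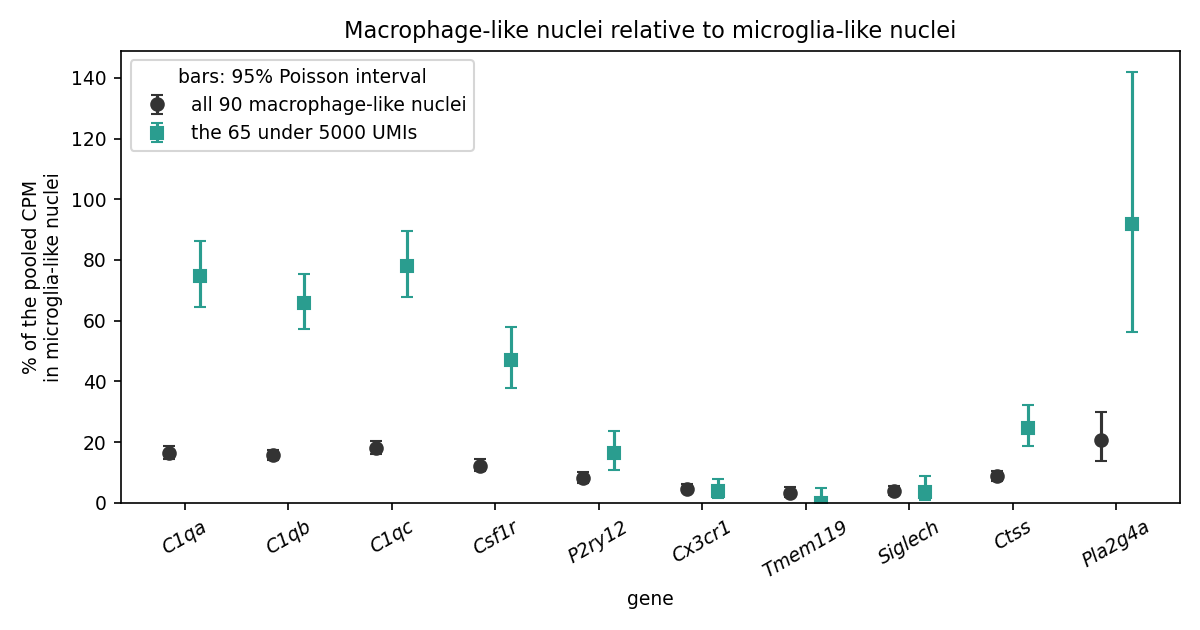
Level of each gene in macrophage-like nuclei, pooled over the 6 mice, as a percentage of its pooled level in microglia-like nuclei, with 95% Poisson intervals. In the 65 nuclei under 5000 UMIs the C1q chains lie between 65.8% and 78% and Cx3cr1, Tmem119 and Siglech under 4%.

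Pla2g4a was the least restricted of the genes. Its mean level was 179 ± 78.5 CPM in microglia-like nuclei (SD, n = 6 mice), 72.9 ± 27.2 in differentiating oligodendrocyte-like, 55 ± 26.6 in vascular and leptomeningeal-like, 42.2 ± 7.72 in oligodendrocyte-like, 40.3 ± 26.2 in macrophage-like, 38.6 ± 26.4 in endothelial-like and 22.7 ± 9.07 in oligodendrocyte precursor-like nuclei. From the second to the sixth of these, the neighbours differ by less than their spread between mice. The macrophage-like level was taken over all nuclei of that class, some of which carried neuronal RNA. Of the 20 Pla2g4a UMIs in the 65 macrophage-like nuclei under 5000 UMIs, 9 came from control mouse 5 and 6 from control mouse 1. Pooled over mice, Pla2g4a was at 180 CPM in these nuclei. That was 91.8% of its pooled microglial level (Poisson interval 56.1 to 142, counting error only), an interval that includes the microglial level itself. In neurons the highest level was 5.05 ± 2.81 CPM, in Sst-like interneurons. Microglia-like nuclei held 36.8% of its UMIs and oligodendrocyte-like nuclei 20.9%.

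In microglia-like nuclei, the C1q chains and the 6 identity genes did not differ between trained and control mice beyond the spread of the mice, and Pla2g4a was lower in trained mice. Of the 10 genes, 1 passed the threshold (edgeR quasi-likelihood test, adjusted p under 0.05 over 9266 genes), where 0.0432% of all genes tested did, and 5 were lower and 5 higher in trained mice, where 50.3% of all genes tested were lower. Because the 10 were chosen with earlier results of these data known, the share that passed cannot be weighed against that of all genes. The median log2 fold change of the 10 was -0.04, against -0.0019 over all genes tested. Levels compared between trained and control mice from here on are CPM scaled by TMM, edgeR's correction for composition, unless said to be unscaled, and fold changes are trained over control.

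C1qa was at 2947, 2261 and 1798 CPM in trained mice 2, 4 and 6, against 2719, 2067 and 2148 CPM in control mice 1, 3 and 5. C1qb was at 3300, 3278 and 2559 CPM in trained mice, against 3224, 2477 and 2805 CPM in control mice. C1qc was at 2542, 2765 and 2219 CPM in trained mice, against 2580, 2242 and 2280 CPM in control mice. For each chain the 2 groups overlapped and the log2 fold change was within its SE of 0: 0.02 ± 0.16 for C1qa, 0.11 ± 0.14 for C1qb and 0.09 ± 0.13 for C1qc (adjusted p of 0.995 or more). Csf1r, the survival receptor, averaged 1754 ± 247 CPM in trained mice and 1755 ± 190 in control mice (SD, n = 3 each), which gave 0.00 ± 0.14 on the log2 scale. Ctss averaged 2083 ± 188 CPM in trained mice and 2025 ± 144 in control mice.

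The surface genes P2ry12, Cx3cr1, Tmem119 and Siglech lay slightly lower in trained mice, within the spread of the mice. P2ry12 was at 1370, 1425 and 1478 CPM in trained mice 2, 4 and 6, against 1615, 1343 and 1892 CPM in control mice 1, 3 and 5, a log2 fold change of -0.18 ± 0.14 (adjusted p = 0.969). Siglech averaged 1013 ± 117 CPM in trained mice and 1123 ± 201 in control mice, Cx3cr1 1609 ± 222 and 1734 ± 363, and Tmem119 683 ± 194 and 728 ± 68. Trained mouse 6 was lowest of all 6 for C1qa, C1qc, Csf1r, Tmem119 and Ctss, and trained mouse 2 highest for C1qa, C1qb, Csf1r and Tmem119. These p-values do not show that the levels were equal.

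**Figure D3:**
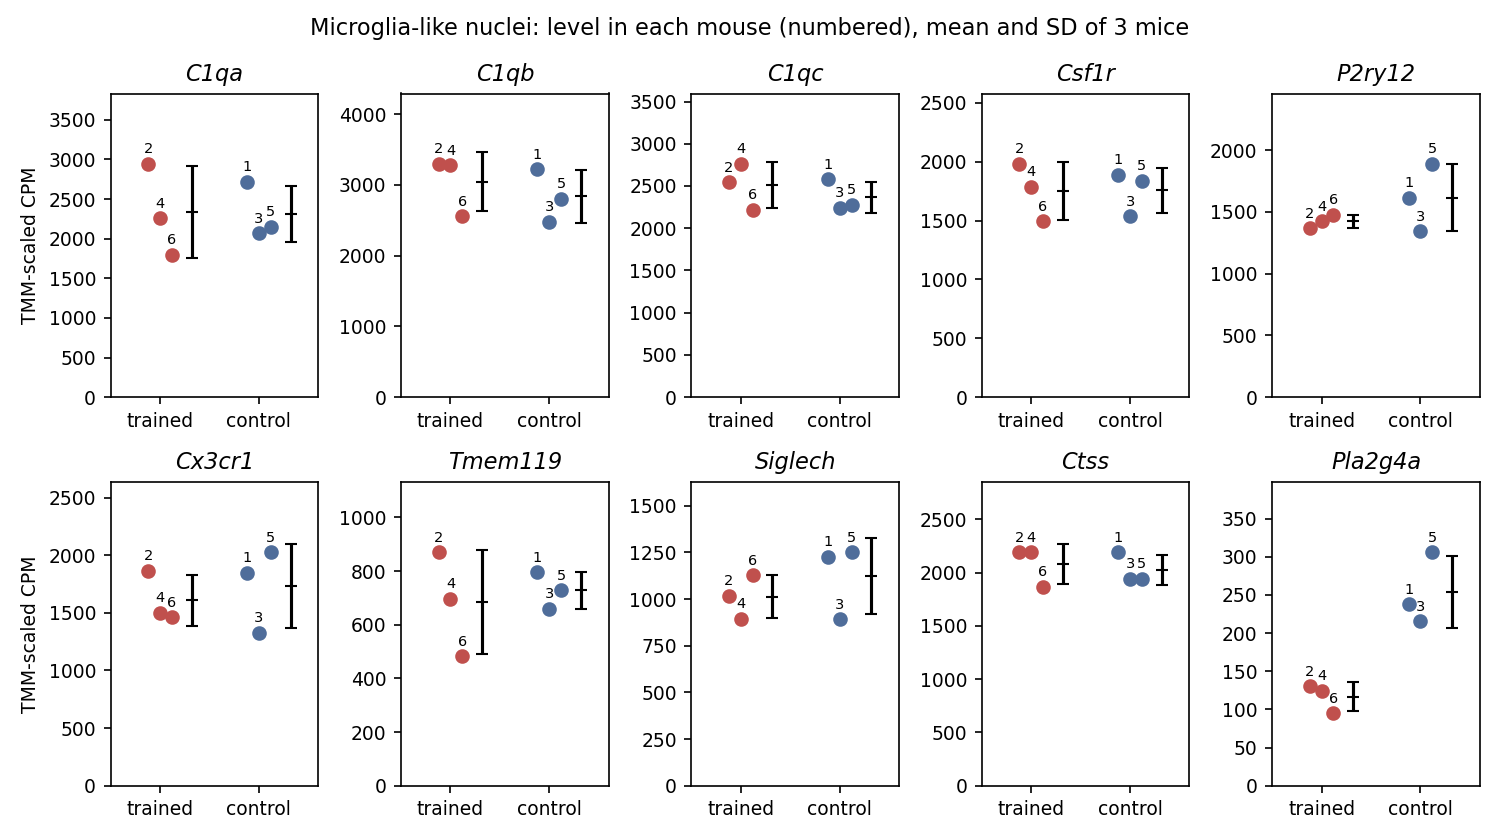
TMM-scaled CPM of each gene in microglia-like nuclei of each mouse (numbered points, trained in red, control in blue), with the mean and SD of 3 mice beside them. The groups overlap for 9 genes, and for Pla2g4a the trained mice lie between 94.8 and 130 CPM and the control mice between 216 and 306 CPM.

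Pla2g4a was at 130, 124 and 94.8 CPM in trained mice 2, 4 and 6, against 238, 216 and 306 CPM in control mice 1, 3 and 5, from 73, 85 and 32 UMIs in trained and 214, 175 and 252 UMIs in control mice. Each trained mouse was below each control mouse, as were 5.16% of all genes tested. The log2 fold change was -1.09 ± 0.17 (adjusted p = 0.00722), the second smallest p of 9266 genes. Per nucleus, after thinning to 1000 UMIs, Pla2g4a was found in 11.3 ± 0.58% of microglia-like nuclei of trained mice and 19.4 ± 2.42% of those of control mice (SD, n = 3 each), and before thinning in 17.3 ± 1.53% and 28.8 ± 5.61%. Finer clustering split the class in 2, and each trained mouse was below each control mouse in both clusters. In the cluster of 1972 nuclei Pla2g4a was at 141, 117 and 109 CPM (unscaled) in trained mice, against 230, 206 and 301 CPM in control mice. In the cluster of 584 nuclei it was at 110, 129 and 56.3 CPM (unscaled) in trained mice, against 225, 237 and 290 CPM in control mice. These values rest on 25, 32 and 7 UMIs in trained and 86, 35 and 113 UMIs in control mice. Both clusters are parts of the class tested above, so they give no separate test.

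Pla2g4a was lower in trained mice in all 19 alternatives tried, with log2 fold changes between -1.25 and -0.93, and passed the threshold in 13 of them. Adding the 20 nuclei of high UMIs, which had been kept apart after their UMIs were seen, gave an edgeR adjusted p of 0.27. They would bring 4.95% of the class's UMIs and 9 UMIs of Pla2g4a. Joining the macrophage-like nuclei gave 0.121 and keeping doublets gave 0.227. The adjusted p was 0.101 when control mouse 1 was left out, 0.0646 for trained mouse 4 and 0.0888 for trained mouse 6. The other genes that passed, all lower in trained mice, were Numb, an adaptor that limits Notch signalling (671 ± 109 CPM in trained and 1312 ± 167 CPM in control mice), the predicted gene Gm35188 (413 ± 32.3 and 775 ± 211 CPM) and the metalloprotease gene Adamts16 (3.63 ± 3.65 and 48.7 ± 33 CPM). Leaving out control mouse 1 turned the count of 4 genes into 0, control mouse 3 into 36, control mouse 5 into 13 and trained mouse 6 into 1. The 2 higher genes of smallest p did not pass: Slc43a2, an amino acid transporter, averaged 279 ± 19.9 CPM in trained and 171 ± 16.4 CPM in control mice, and mt-Nd3, a mitochondrial transcript, 35.4 ± 22.2 and 8.31 ± 0.45 CPM (adjusted p = 0.0792 for both). The mitochondrial share of UMIs in microglia-like nuclei was 0.311% in trained mouse 2, 0.144% and 0.15% in trained mice 4 and 6, and 0.0897% to 0.12% in control mice. With that share as a covariate, the Pla2g4a log2 fold change was -1.25 (adjusted p = 0.026).

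The Pla2g4a difference in microglia-like nuclei departed from that in the rest of the tissue. Set against the sum of all other nuclei of the same mouse, with the mouse as a block, the log2 difference between the 2 training effects was -1.11 ± 0.21 (edgeR, adjusted p = 0.000358), and 0.183% of 18081 genes passed. None of the other 9 genes passed; their values lay between -0.1 for C1qc and 0.38 for Siglech. Against single classes with Pla2g4a above 20 CPM, a limit chosen after the levels were known, the difference was -2.17 ± 0.36 against vascular and leptomeningeal-like nuclei (adjusted p = 0.0168, where 0.0892% of genes passed). It did not pass against the other classes, at -1.07 ± 0.38 against oligodendrocyte precursor-like nuclei (adjusted p = 0.707, 0.0473% of genes passed), -0.62 ± 0.23 against oligodendrocyte-like nuclei (0.965, 0.00%), -1.30 ± 0.71 against endothelial-like nuclei (1, 0.0139%) and -0.83 ± 0.42 against differentiating oligodendrocyte-like nuclei (1, 0.0131%). DESeq2 gave an adjusted p of 0.864 for the interaction with all other nuclei.

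**Figure D4:**
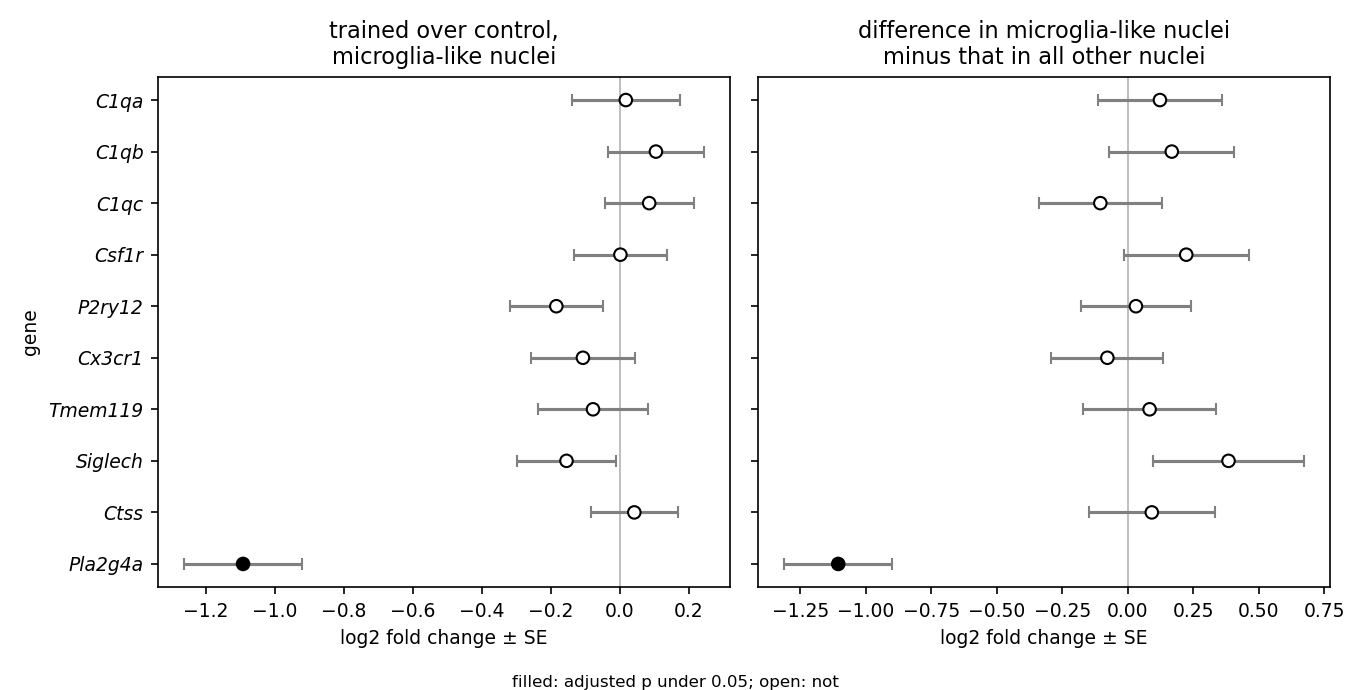
Log2 fold change of trained over control mice in microglia-like nuclei (left) and its difference from the same contrast in all other nuclei (right) for each gene, with SE; filled points have an adjusted p under 0.05. Pla2g4a lies at -1.09 and -1.11, and the other 9 genes between -0.18 and 0.11 on the left and between -0.1 and 0.38 on the right.

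Outside microglia, no member test passed. The genes could be tested 55 times in 18 of 20 other fitted classes, 15 times for P2ry12, 14 for Cx3cr1, 9 for Pla2g4a and 17 for the C1q chains and Ctss, and never for Csf1r, Tmem119 or Siglech. Of these, 0 tests had an adjusted p under 0.05, against 0.0147% of all tests in the 20 classes. Before adjustment 8 had p under 0.05, 14.5% of them, against 3.98% of all tests. In 11 tests, 20% of them, the groups did not overlap, where 9.33% of all tests did; trained mice were below in 10, against 4.43% of all tests, and above in 1, against 4.90%; tests of a gene in several classes share the same mice. P2ry12 was lower in trained mice in 13 of 15 classes, with log2 fold changes from -0.89 to 0.25, where 50.3% of all tests were lower. In L5 ET-like neurons it was at 10.4, 12.8 and 14.7 CPM in trained mice 2, 4 and 6, against 20.6, 15.6 and 19.8 CPM in control mice 1, 3 and 5 (log2 fold change -0.59 ± 0.2, adjusted p = 0.999). C1qc was lower in 5 of 5 classes. In astrocyte-like nuclei C1qa was at 3.12 ± 0.41 CPM in trained mice and 6.62 ± 2.52 CPM in control mice (adjusted p = 0.457), in a class that averaged 0.216% of the microglial level. Microglia-like nuclei were 3.48% to 5.07% of the nuclei of trained mice and 5.05% to 6.8% of those of control mice; the part of this in the low levels of other classes was not tested.

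In vascular and leptomeningeal-like nuclei, the cells of the brain's outer membranes and vessel walls, Pla2g4a lay the other way. It was at 91.4, 94.3 and 61 CPM in trained mice 2, 4 and 6, against 30, 53.5 and 27.9 CPM in control mice 1, 3 and 5, from 139 UMIs in all. The groups did not overlap, with trained mice above, as in 7.75% of all genes tested in this class, and the log2 fold change of 1.07 ± 0.33 did not pass (adjusted p = 0.282). In oligodendrocyte-like nuclei it was at 31, 38.4 and 41 CPM in trained mice, against 46.7, 44.7 and 54.3 CPM in control mice, also without overlap, with trained mice below, as in 4.91% of genes tested in this class (log2 fold change -0.41 ± 0.18, adjusted p = 0.991). In oligodendrocyte precursor-like nuclei the means were 23.8 CPM in trained and 23.7 CPM in control mice.

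**Figure D5:**
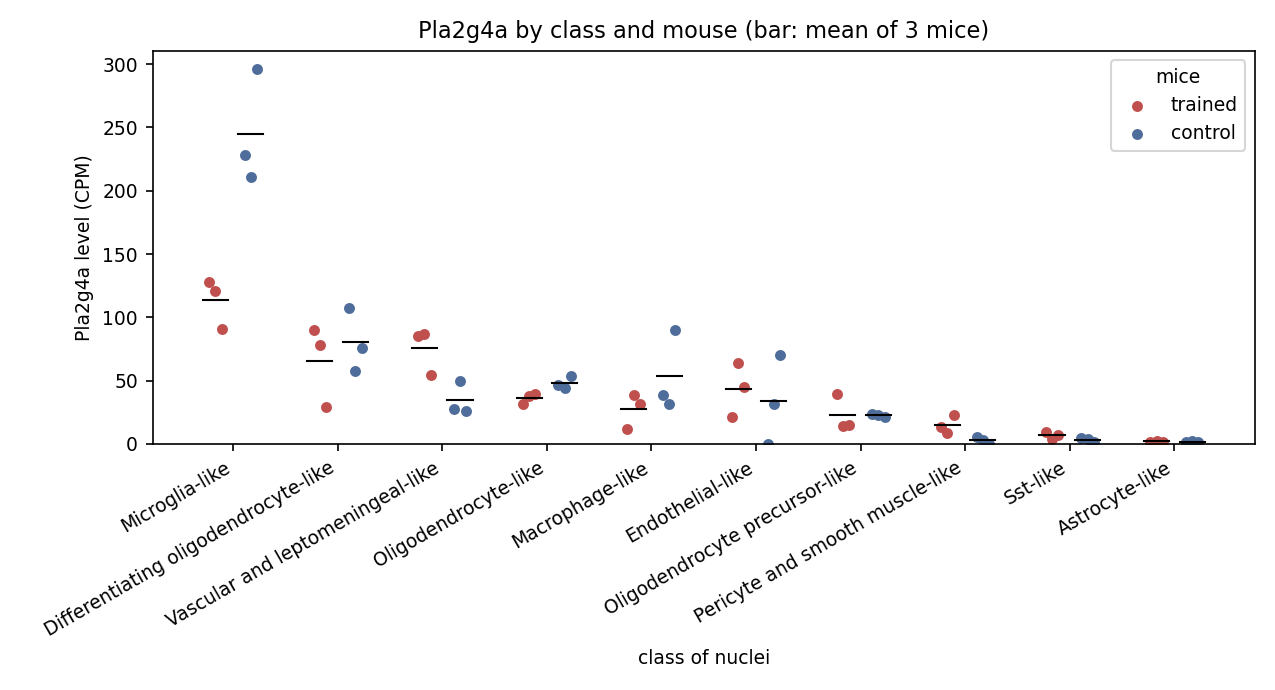
Pla2g4a in CPM, without TMM scaling, in each mouse (points, trained left and red, control right and blue; bars, mean of 3 mice) in classes with a mean above 5 CPM and in astrocyte-like nuclei. Trained mice lie below control mice in microglia-like nuclei and above them in vascular and leptomeningeal-like nuclei.

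The neighbours of these genes in their pathways were followed in microglia-like nuclei through 9 lists, and no listed gene passed the threshold in any of them. Among 9 tested complement genes beyond the C1q chains, 5 were higher and 4 lower in trained mice, with a median log2 fold change of 0.04. Of 8 genes around CSF1 receptor signalling 5 were higher and 3 lower, led by the phosphatase gene Inpp5d at 3378 ± 398 CPM in trained and 2487 ± 414 CPM in control mice (adjusted p = 0.5). Of 7 fractalkine and purinergic partners 6 were higher, led by Entpd1, the enzyme that degrades ATP and ADP, at 1664 ± 93.5 CPM in trained and 1312 ± 173 CPM in control mice (adjusted p = 0.669). The lower gene was Gpr34 (log2 fold change -0.34). At unadjusted p under 0.05 in the edgeR test this list held 1 higher and 1 lower gene, Entpd1 and Gpr34. Of all genes tested, 2.96% were higher and 3.12% lower at that limit.

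Of 14 tested genes of the eicosanoid pathway, which uses the product of PLA2G4A, 8 were higher and 6 lower, with a median log2 fold change of 0.05. In the edgeR test 1 higher and 3 lower genes had unadjusted p under 0.05, where 2.96% of all genes tested were higher and 3.12% lower at that limit. Ptgs1, the cyclooxygenase of microglia, was at 230, 229 and 237 CPM in trained mice 2, 4 and 6, against 367, 307 and 326 CPM in control mice 1, 3 and 5 (log2 fold change -0.52 ± 0.14, adjusted p = 0.271). Ptgs1 had the smallest p of these 14 genes. Its groups did not overlap, with trained mice below, as in 5.16% of all genes tested in microglia-like nuclei. Hpgds, which makes prostaglandin D2 and was picked after its values were seen, averaged 535 ± 15.2 CPM in trained and 688 ± 144 CPM in control mice, and Alox5, the leukotriene-forming lipoxygenase and also picked after its values were seen, 69.6 ± 26.6 and 44.5 ± 12.7 CPM. Hpgd, which inactivates prostaglandins and was picked in the same way, averaged 333 ± 56.7 CPM in trained and 571 ± 125 CPM in control mice (log2 fold change -0.76 ± 0.16, adjusted p = 0.0792).

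Of 20 homeostatic genes other than the 10, 9 were higher and 11 lower, with Crybb1 of smallest p (275 ± 31.3 CPM in trained and 215 ± 17.8 CPM in control mice). In the edgeR test 1 higher and 2 lower genes of this list had unadjusted p under 0.05, with Gpr34 among the lower. Among all genes tested, 2.96% were higher and 3.12% lower at that limit. Of 13 genes of reactive microglia 7 were higher and 6 lower, with Apoe of smallest p (393 ± 168 and 287 ± 61.5 CPM), and of 10 genes of a lysosomal protease list 4 were higher and 6 lower, with Ctsl of smallest p (361 ± 35.8 and 336 ± 47.7 CPM). Of 12 immediate early genes 8 were higher, with a median log2 fold change of 0.23. In the edgeR test 3 higher and 0 lower genes had unadjusted p under 0.05, where 2.96% of all genes tested were higher and 3.12% lower at that limit. Btg2 had the smallest p of these 12 (116 ± 15.4 CPM in trained and 74.7 ± 15.7 CPM in control mice, adjusted p = 0.511). Of 12 neuronal genes, a measure of RNA from other cells, 5 were higher and 7 lower, with a median of -0.17, and Kcnip4 had the smallest p (186 ± 13.5 CPM in trained and 316 ± 155 CPM in control mice, adjusted p = 0.403).

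Across the 22 classes, the 9 genes other than Pla2g4a had pairwise Pearson correlations of log2 levels between 0.85 and 1, and Pla2g4a correlated with them at 0.4 to 0.76. The 10 further genes most like the 9 were Selplg, Cd300c2, Gpr34, Cd33, Arhgap45, Fcgr3, A630001G21Rik, Csf3r, Trem2 and C5ar2, each with a mean correlation of 0.97; Selplg, Gpr34, Arhgap45 and Trem2 were among the markers that named the class. The 3 genes most like Pla2g4a were R3hcc1l, Gm37494 and Heatr5a, at 0.91 each. These correlations are over classes that share libraries and depth.

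Microglia-like nuclei were 4.57%, 5.07% and 3.48% of the nuclei of trained mice 2, 4 and 6, against 5.64%, 5.05% and 6.8% of those of control mice 1, 3 and 5. The groups overlapped, and the difference of -1.46 percentage points had p = 0.2 in an exact two-sided permutation test, whose smallest possible p with 3 against 3 mice is 0.1. With doublets kept the difference was -1.60 points, and with the high-UMI nuclei added it was -1.47; in both the groups no longer overlapped and the exact p was 0.1. It was -0.70 points among nuclei with at least 1000 UMIs (exact p = 0.4) and -0.97 without control mouse 5. In an edgeR quasi-likelihood test over counts of nuclei in 27 classes the log2 fold change was -0.41 ± 0.21 (adjusted p = 0.676). In trained mouse 6, an unnamed cluster with Tmsb10 and Fth1 among its leading genes held 389 of 5254 nuclei, and it held at most 7 in any other mouse.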

How the data were processed

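Whole-number UMI counts per gene and barcode were deposited as 1 matrix for 6 mice; per the file header and the submitters' processing notes, the authors made it with Cell Ranger 4.0.0 on mm10. Each mouse had a shallow and a deep run, and the design text ties barcodes to the shallow one; no source used here gives whether deep reads are included, or the use of intronic reads or strand. The deposited barcode and gene lists gave mice and symbols.

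Barcodes needed 500 genes and under 5% mitochondrial UMIs (51683 of 51926), and scrublet (scanpy 1.11.5) removed 2484 doublets. Leiden clusters (resolution 1.0, 20 neighbours, 30 components, 2000 variable genes without the 10 genes) were named by markers: a name needed the most markers among the 10 leading genes, and unnamed clusters kept numbers. The 10 genes, the markers and the lists were chosen with earlier results of these data known. Other genes are named by rule: likeness over classes, smallest p, and the smallest p of each list; Gm35188 and Adamts16 are named because they passed, and Hpgds, Hpgd and Alox5 were picked after their values were seen. Some genes that these rules name are not reported here.

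Counts were summed per mouse and class with 20 nuclei in every mouse and tested with edgeR 4.0.16 (quasi-likelihood, TMM, filterByExpr, Benjamini-Hochberg within a class). SE is the log2 fold change over the root of F. Fits were tested on simulated data. DESeq2 1.42.0, other scaling, filters, clustering and left-out mice were alternatives. Replicates are separate mice per the labels. Positions are GENCODE M21; promoters of 7 of the 10 genes are RefSeq.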

Additional observations from a re-analysis of the deposited data

Results flagged for a closer look

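The training effect on Pla2g4a in microglia-like nuclei differed from that in 2 of the 6 sets of nuclei it was compared with. Microglia-like nuclei minus all other nuclei gave -1.11 on the log2 scale, by the interaction term of an edgeR fit with the mouse as a block (adjusted p = 0.000358), while DESeq2 gave an adjusted p of 0.864. Minus vascular and leptomeningeal-like nuclei it was -2.17 (edgeR, adjusted p = 0.0168). The effects there had opposite signs, -1.09 and 1.07, but the 1.07 did not pass by itself (edgeR, adjusted p = 0.282) and rests on 139 UMIs. Against the oligodendrocyte, oligodendrocyte precursor, endothelial and differentiating oligodendrocyte classes the interaction did not pass (edgeR, adjusted p from 0.707 to 1).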

How the results depend on the processing

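The count of 4 genes past the threshold in microglia-like nuclei was 18 with DESeq2, 76 with no filter on low counts, and 0 with doublets kept, with macrophage-like nuclei joined or with the 20 nuclei of high UMIs added; leaving out 1 mouse gave 0 to 36. The count of 1 among the 10 genes, Pla2g4a, was 0 with doublets kept, with macrophage-like nuclei joined and with the high-UMI nuclei added, and 0 to 1 with 1 mouse left out. In other classes the count of 0 was 1 with no filter (Cx3cr1 in vascular and leptomeningeal-like nuclei), and the interaction count of 1 was 0 with DESeq2. The causes were not tested. The high-UMI nuclei were kept apart after their UMIs were seen, and adding them as an alternative was also chosen after seeing the data. In microglia-like nuclei the alternatives at resolution 0.5 and 2.0, and with the 10 genes allowed in clustering, nearly repeat the main fit. The other 9 genes passed in 0 of 171 fits. Some had log2 fold changes of the other sign: C1qa had -0.0669 with median UMIs and -0.25 with the mitochondrial percentage as covariate, and -0.18 to 0.17 with 1 mouse left out; Csf1r had -0.00757 with no filter, -0.00517 with macrophage-like nuclei joined, -0.0202 with median UMIs and -0.14 with the mitochondrial percentage, and -0.0921 to 0.10 with 1 mouse left out. With 1 mouse left out, Cx3cr1 ranged from -0.27 to 0.0239 and Tmem119 from -0.28 to 0.10. No paired analysis was possible because trained and control mice share no numbers; the mouse was a block only in the interaction. With 3 mice a group, and 32 to 252 Pla2g4a UMIs per mouse, depth limits what could be called.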
